A study of Mus musculus with 8 samples.

Results

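The genes described here carry the NRF2 response and the glutathione and thioredoxin systems of the mouse lung. The list holds 36 genes, and a gene was included when an array feature carried its symbol in the platform annotation. Of the 36 genes, 35 had at least 1 feature (56 features in all) and passed the filter on dim features. They stand among 17229 tested genes, each represented by its brightest feature. G6pdx, the glucose-6-phosphate dehydrogenase, had no named feature and is not analysed here.

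The lungs came from newborn C57Bl/6J mice that breathed 85% oxygen between P0 and P3 (postnatal days). One group, titled TG_hyperoxia, has the genotype label Fgf10 +/- (4 arrays), and the other, titled WT_hyperoxia, is labelled wild-type (4 arrays). Both groups received the oxygen, and no array from a pup in room air was analysed here, so every value compares genotypes under oxygen. Total RNA from lung was labelled with Cy3 and hybridised to Agilent arrays, 1 sample to each array. The series design text calls the 4 samples of each group independent. No label names a litter or says that the samples are separate animals, and a p-value here reflects the variation among these samples. How much of that variation is technical is not known.

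Fgf10 itself read 7.81, 7.99, 8.10 and 8.28 in the arrays labelled Fgf10+/- and 7.53, 8.16, 7.91 and 7.64 in wild-type arrays (log2 intensity). The groups overlapped, with a difference of 0.23 (SE 0.16, limma adjusted p = 0.653). All 10 Fgf10 features had the higher mean in the group labelled Fgf10+/-, so no feature was lower in the group that the label gives 1 altered copy. No source used here gives the deleted part of the gene, so Fgf10 does not check the labels and directions rest on them alone. The lung genes Sftpc, Sftpb, Sftpa1, Scgb1a1, Ager and Nkx2-1 were bright on all arrays, between 10.26 and 15.99. Wild-type array 4 stood apart in other genes. It read 11.25 for the atrial hormone gene Nppa, against 4.55 to 6.25 in the other 7 arrays. Of the other listed heart muscle genes, Myh6, Tnnt2 and Sln were also highest there. Myl4, Myl7 and Actc1 were highest in other arrays. Wild-type array 4 read 7.79 for the mesothelial factor Wt1, against 3.08 to 6.22. Where leaving it out changed the sign of a member's difference or moved it by over 1.5 times, the value without it is given.

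NRF2, encoded by Nfe2l2, is a transcription factor that KEAP1 holds at a low level by marking it for degradation. Oxidants and electrophiles modify KEAP1, NRF2 accumulates, and it binds antioxidant response elements together with small MAF proteins. Its targets make glutathione, reduce thioredoxin, supply NADPH and detoxify quinones, carbonyls and epoxides. In the newborn lung this response is known for protecting epithelium against high oxygen.

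The core letters of the antioxidant response element, TGACNNNGC, were searched on both strands of each promoter (RefSeq, build GRCm38.p6). Each promoter ran from 250 bases before to 50 after the start site. Membership of the list did not depend on these letters. Promoters were found for 31 of the 36 listed genes, and 10 of these (32.3%) held the letters, against 14.0% of all 27025 genes with a promoter in the table. Counted by promoter, 27.8% of the 36 promoters of listed genes and 12.4% of all 32851 held them. A match is a description of letters and not a shown site, and no match says only that the letters are not in this window. Below are 5 matches, shown for the regulator itself, for 3 targets with known roles in redox defence and for Gstm5, whose groups did not overlap. Capitals mark the core, read along the strand of the gene, and the reverse orientation reads GCNNNGTCA.
Nfe2l2, chr2:75704879-75704913, minus strand: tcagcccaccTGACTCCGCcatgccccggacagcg
Prdx1, chr4:116685450-116685490, plus strand: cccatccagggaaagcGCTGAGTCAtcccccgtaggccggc
Me1, chr9:86695896-86695936, minus strand: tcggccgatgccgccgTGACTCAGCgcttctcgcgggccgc
Srxn1, chr2:152105536-152105573, plus strand: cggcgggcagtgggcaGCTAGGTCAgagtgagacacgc
Gstm5, chr3:107895796-107895836, plus strand: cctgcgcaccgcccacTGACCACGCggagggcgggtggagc
Among tested members, the 9 with a match had a median log2 fold change of 0.066 and the 21 with a promoter but no match had 0.011, both near 0. Txnrd2 and Gstm2, whose groups also did not overlap, and Tkt, which had the smallest p, were not among the genes with a match.

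None of the 35 members was called by limma at an adjusted p below 0.05, in either direction. Among all genes 0.226% were called higher and 0.569% lower in the lungs labelled Fgf10+/-, so a list of this size with no called gene does not stand out. Differences (log2, Fgf10+/- minus wild-type) ran from -0.28 for Gstm2 to 0.64 for Hmox1, with 20 positive, 15 negative and a median of 0.042, against 0.0068 over all genes tested. At an unadjusted p below 0.05 there were 3 members higher (Tkt, Txnrd2 and Txnip) and 1 lower (Gstm2), where the same limit took 5.39% of all genes as higher and 5.79% as lower. Groups did not overlap for 1 member that was higher (Txnrd2) and 2 that were lower (Gstm2 and Gstm5), against 3.13% and 3.51% of all genes. Each count is within 2 genes of what the share over all genes gives in a list of this size.

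The intervals show what size of difference the arrays could bound. For 33 of 35 members the 95% interval lay within a 2-fold difference in both directions, and for 25 it lay within 1.5-fold. Over all genes tested the shares were 72.6% and 47.7%. The members were brighter, with array means of 10.01 to 10.38 against 7.267 to 7.295 over all genes tested. The fit let the variance follow the level, and genes of like level were not compared. The members with an interval reaching beyond 2-fold were Hmox1, from -0.93 to 2.21, and Slc7a11, from -1.27 to 0.92 (log2). A 2-fold genotype difference in these genes was therefore not bounded by 4 arrays a group. In RNA from lung tissue, fewer cells of a type and less RNA per cell cannot be told apart.

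**Figure D1:**
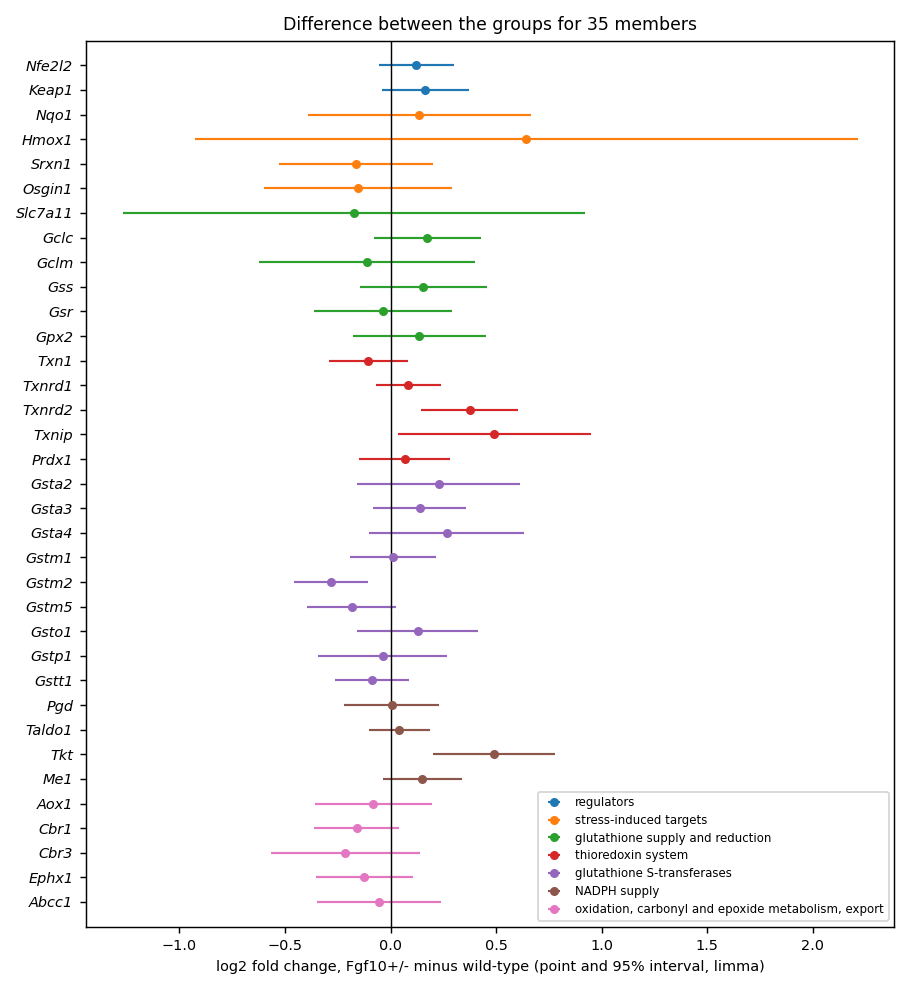
Log2 fold change of each of the 35 members (x axis, Fgf10+/- minus wild-type, point and 95% interval from limma, 4 arrays a group), in order of role. Most intervals include 0, those of Tkt, Txnrd2 and Txnip lie above it and that of Gstm2 below it, and the interval of Hmox1 is the widest.

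Both regulators had small positive differences. Nfe2l2 read 11.21, 11.11, 11.12 and 11.13 in the arrays labelled Fgf10+/- and 11.16, 11.03, 11.02 and 10.86 in wild-type arrays. Wild-type array 1 lay within the other group, so the groups overlapped, and the difference was 0.12 (95% interval -0.05 to 0.30, limma adjusted p = 0.624), and 0.07 without wild-type array 4. Keap1, which encodes the sensor, read 10.85, 10.59, 10.76 and 10.47 against 10.52, 10.52, 10.56 and 10.40, a difference of 0.165 (95% interval -0.04 to 0.37, limma adjusted p = 0.565). Its arrays 1, 2 and 3 labelled Fgf10+/- lay above all wild-type arrays and array 4 did not.

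The stress-induced targets varied most between arrays of 1 group. Hmox1, the heme oxygenase that breaks heme down to biliverdin, read 9.04, 10.18, 10.04 and 9.85 in the arrays labelled Fgf10+/- and 9.86, 6.02, 10.65 and 10.01 in wild-type arrays. Wild-type array 2 lay far below the other 7 arrays. The second Hmox1 feature was also lowest there, at 3.95, against 4.50 to 5.51 in the other arrays. That feature had a difference of 0.04, and the mean of both features gave 0.34 (limma adjusted p = 0.877). The brightest feature's difference of 0.64 (SE 0.73, limma adjusted p = 0.812) turned to -0.40 (SE 0.25) without wild-type array 2. It was 1.15 (SE 0.73) without wild-type array 3.

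Nqo1, a quinone reductase and a standard readout of NRF2 activity, read 6.29, 6.00, 6.29 and 6.03 against 6.56, 5.45, 6.13 and 5.93. Wild-type array 1 was the highest and wild-type array 2 the lowest of all 8, so the wild-type values enclosed the others. Its difference was 0.14 (SE 0.24, limma adjusted p = 0.890), -0.05 without wild-type array 2 and 0.32 without wild-type array 1. Srxn1, the sulfiredoxin that repairs overoxidised peroxiredoxins, read 9.55, 9.70, 9.43 and 9.04 against 9.98, 9.40, 9.25 and 9.75, a difference of -0.16 (SE 0.17), which was -0.04 without wild-type array 1 or without array 4 labelled Fgf10+/-. Osgin1, an oxidative stress-induced growth inhibitor, read 8.30, 8.30, 8.35 and 7.76 against 8.70, 7.74, 8.65 and 8.24, a difference of -0.16 (SE 0.21). It was -0.02 without array 4 labelled Fgf10+/-, -0.03 without wild-type array 1, -0.05 without wild-type array 3 and -0.35 without wild-type array 2. Wild-type array 2 was therefore the lowest wild-type array for Hmox1, Nqo1 and Osgin1, but not for Srxn1, where wild-type array 3 was lowest. The same array had the highest values of the liver genes Ahsg (8.59, against 2.80 to 5.58 in the other arrays), Alb (5.06) and Apoa1 (5.46). Fgb, also a liver gene, read 3.14 there and was highest in wild-type array 4, at 4.09. Alb, Apoa1 and Fgb were dim, with mean levels at percentiles 20, 16.6 and 0.74 of all genes tested. Over the 4 of 6 listed liver genes that were tested, the mean, with each gene centred on its mean over the 8 arrays, was 1.91 in that array, -0.467 to 0.0727 in wild-type arrays 1, 3 and 4, and -0.641 to 0.126 in the arrays labelled Fgf10+/-. The part of these genes in the low Hmox1 value was not tested.

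**Figure D2:**
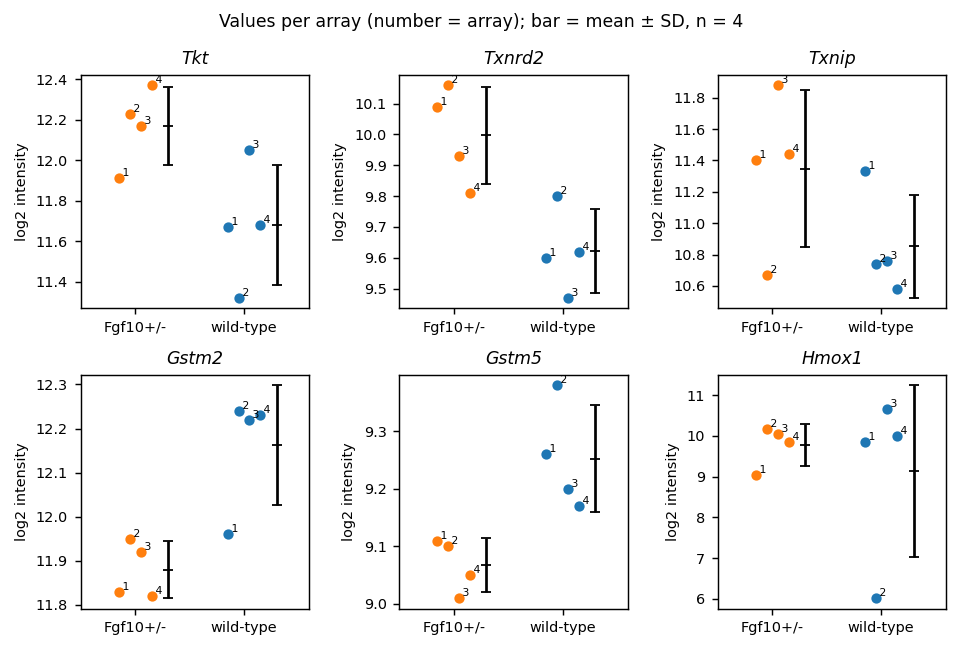
Log2 intensity of 6 members in every array (points numbered by array, y axis log2 intensity, each panel on its own scale) with mean ± SD, n = 4 a group. Txnrd2, Gstm2 and Gstm5 have no overlap between groups, Tkt and Txnip overlap through 1 array or more, and wild-type array 2 has 6.02 for Hmox1.

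Glutathione is made from cystine, which the transporter subunit Slc7a11 brings in, by the ligase that Gclc (catalytic subunit) and Gclm (modifier subunit) encode, and then by the synthetase Gss. None of these genes passed the test, and their signs were mixed. Gclc read 11.97, 11.82, 11.97 and 11.68 against 12.00, 11.71, 11.68 and 11.37, with wild-type array 1 above all arrays labelled Fgf10+/- and a difference of 0.17 (SE 0.12, limma adjusted p = 0.634). That difference was 0.28 without wild-type array 1 and 0.07 without wild-type array 4, its lowest array. Gclm had a difference of -0.11 (SE 0.24), with its lowest value, 5.88, in array 1 labelled Fgf10+/-, and turned to 0.08 without that array. It was -0.03 without wild-type array 4, -0.27 without array 3 labelled Fgf10+/- and -0.22 without wild-type array 3. Gss had a difference of 0.16 (SE 0.14), which was 0.03 without wild-type array 4, whose 8.09 lay below the 8.48 to 8.81 of the other 7 arrays.

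Slc7a11 was dim, with 3.16, 3.18, 3.88 and 3.01 in the arrays labelled Fgf10+/- and 4.85, 2.03, 3.62 and 3.42 in wild-type arrays. The difference of -0.17 was 0.28 without wild-type array 1 and -0.66 without wild-type array 2. Wild-type array 2 lay below the filter level of 2.76, and whether values this low lay above background is unknown. Gsr, which reduces oxidised glutathione with NADPH, read 10.90, 10.76, 10.77 and 10.59 against 11.33, 10.64, 10.74 and 10.46, a difference of -0.04 (SE 0.15). Without wild-type array 1, its highest array, the difference was 0.14, and without wild-type array 4, its lowest, -0.15. Gpx2, an epithelial glutathione peroxidase, read 11.70, 11.75, 11.74 and 11.36 against 11.82, 11.44, 11.70 and 11.05. Its difference of 0.14 (SE 0.15) was -0.02 without wild-type array 4, which held the lowest value.

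In the thioredoxin system 4 of the 5 members had positive differences and none passed. Txnrd2 encodes the mitochondrial thioredoxin reductase. It read 10.09, 10.16, 9.93 and 9.81 in the arrays labelled Fgf10+/- and 9.60, 9.80, 9.47 and 9.62 in wild-type arrays. The 4 values of the first group lay above the 4 of the second, with 9.81 against 9.80 at the boundary. Its difference was 0.37 (95% interval 0.14 to 0.61), 1.30-fold, with a limma adjusted p = 0.155, so it did not pass. With each array left out in turn it stayed between 0.32 and 0.44 and was called in none of these 8 refits. Txnrd1, the cytosolic reductase, read 11.21, 11.16, 11.25 and 11.24 against 11.18, 11.12, 11.15 and 11.08, which overlapped, with a difference of 0.08 (95% interval -0.07 to 0.24, limma adjusted p = 0.722). Whether Txnrd2 and Txnrd1 differed from each other was not tested.

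Txn1, the cytosolic thioredoxin, read 12.32, 12.29, 12.16 and 12.26 against 12.43, 12.53, 12.36 and 12.13, a difference of -0.11 (95% interval -0.29 to 0.08), which was -0.18 without wild-type array 4 and -0.05 without wild-type array 2. Prdx1, a peroxiredoxin that thioredoxin reduces, had a difference of 0.07 (95% interval -0.15 to 0.28). It turned to -0.03 without wild-type array 4, whose 12.26 was the lowest value, and was 0.16 without wild-type array 1, whose 12.81 was the highest. Its pair of features had differences of 0.066 and 0.069. Txnip binds and inhibits thioredoxin and limits glucose uptake. It read 11.40, 10.67, 11.88 and 11.44 against 11.33, 10.74, 10.76 and 10.58, so arrays 1, 3 and 4 labelled Fgf10+/- were above every wild-type array and array 2 was below 3 of them. Its difference was 0.49 (95% interval 0.04 to 0.95, limma adjusted p = 0.400), and 0.72 without array 2 labelled Fgf10+/- (limma adjusted p = 0.110) but 0.31 without array 3 of that group. The second Txnip feature had a difference of 0.38.

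Glutathione S-transferases join glutathione to electrophiles, and of 9 members 5 had positive and 4 negative differences. The 3 alpha class members had positive differences and overlapping groups. Gsta2 read 7.74, 8.01, 7.66 and 7.46 against 7.41, 7.46, 7.91 and 7.18, a difference of 0.23 (SE 0.18), which was 0.12 without wild-type array 4 and 0.37 without wild-type array 3. Gsta3 read 12.32, 12.53, 12.35 and 12.16 against 12.09, 12.21, 12.47 and 12.05, a difference of 0.14 (SE 0.10), which was 0.09 without wild-type array 4. For both, array 2 labelled Fgf10+/- was the highest of all 8 arrays and wild-type array 4 the lowest.

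Gsta4, which acts on the lipid peroxidation product 4-hydroxynonenal, had 10 features on the array. Its brightest feature read 8.60, 8.87, 8.38 and 8.21 against 8.20, 8.04, 8.66 and 8.10, a difference of 0.27 (SE 0.17). The differences of the 10 features ran from -0.07 to 0.27, 7 of them positive and 3 negative. Averaged over the features the values were 8.16 ± 0.20 and 8.05 ± 0.33 (SD, n = 4 each), a difference of 0.10. The brightest feature thus had the largest difference of the 10, and the value for the gene was smaller by the mean.

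Among the mu class members, Gstm2 (by its brightest feature) and Gstm5 had lower values without overlap, and Gstm1 overlapped. Gstm2 read 11.83, 11.95, 11.92 and 11.82 in the arrays labelled Fgf10+/- and 11.96, 12.24, 12.22 and 12.23 in wild-type arrays, with 11.95 against 11.96 at the boundary. Its difference was -0.28 (95% interval -0.46 to -0.11, limma adjusted p = 0.157). All 3 Gstm2 features had a negative difference, from -0.28 to -0.13, and their mean gave -0.19 (limma adjusted p = 0.486). The dimmer features overlapped, as did the mean of the 3, with 10.39 in array 2 labelled Fgf10+/- above 10.33 in wild-type array 4. Without wild-type array 1, the lowest of its group, Gstm2 was called lower at -0.35 (limma adjusted p = 0.0399). Gstm5 read 9.11, 9.10, 9.01 and 9.05 against 9.26, 9.38, 9.20 and 9.17, a difference of -0.18 (95% interval -0.39 to 0.02, limma adjusted p = 0.522). Gstm1 read 11.06, 11.23, 11.22 and 10.94 against 11.18, 11.05, 11.23 and 10.94, a difference of 0.01 (95% interval -0.19 to 0.21) that was -0.04 without wild-type array 4.

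The mu class genes lie in 1 cluster on chromosome 3 in the RefSeq annotation, in the order Gstm5, Gstm7, Gstm6, Gstm3, Gstm2, Gstm1 and Gstm4, with pseudogenes between them. The 4 that are not members had differences of -0.62 for Gstm7 (SE 0.41), -0.70 for Gstm6 (SE 0.28), -0.12 for Gstm3 (SE 0.18) and -0.32 for Gstm4 (SE 0.19). Thus 6 of the 7 genes had a negative difference, none was called, and the cluster was singled out after its values were seen. These genes resemble each other closely, and no probe sequences were used here, so signal from 1 gene on a feature of another was not tested.

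The other transferases had small differences. Gsto1, of the omega class, read 13.50, 13.53, 13.49 and 13.35 against 13.57, 13.28, 13.64 and 12.87, and its difference of 0.13 (SE 0.13) was -0.03 without wild-type array 4. Gstp1, of the pi class, had -0.04 (SE 0.14), with its lowest value, 9.74, in wild-type array 4 and a difference of -0.20 without that array. The sign turned in other refits. Gstp1 had 0.03 without wild-type array 1, and 0.01 without wild-type array 2, wild-type array 3 or array 4 labelled Fgf10+/-. The other Gstp1 feature had a difference of 0.19, against the -0.04 of the brightest. Gstt1, of the theta class, had -0.09 (SE 0.08).

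Among the genes listed here under NADPH supply, Tkt had the smallest p of all 35 members. Transketolase, its product, works in the non-oxidative arm of the pentose phosphate pathway. Tkt read 11.91, 12.23, 12.17 and 12.37 in the arrays labelled Fgf10+/- and 11.67, 11.32, 12.05 and 11.68 in wild-type arrays. Only wild-type array 3, at 12.05, lay inside the range of the other group, above its array 1. The difference was 0.49 (95% interval 0.20 to 0.78), 1.41-fold, with a limma adjusted p = 0.132. Without wild-type array 3 Tkt was called higher at 0.61 (limma adjusted p = 0.0395), and in the other 7 refits it was not called.

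The other 3 tested genes under this heading had smaller positive differences, and no difference between genes was tested. Taldo1, the transaldolase of the same arm, read 13.61, 13.59, 13.57 and 13.58 against 13.65, 13.59, 13.49 and 13.44, a difference of 0.04 (95% interval -0.10 to 0.19) that was 0.01 without wild-type array 4. Pgd, the phosphogluconate dehydrogenase of the oxidative arm, had 0.01 (95% interval -0.22 to 0.23), and -0.04 without wild-type array 4. Me1, the cytosolic malic enzyme, had 3 features, all with positive differences, from 0.15 to 0.32. The brightest read 11.44, 11.43, 11.29 and 11.13 against 11.13, 11.09, 11.29 and 11.17 and overlapped. The mean of the 3 features read 10.72, 10.57, 10.59 and 10.53 against 10.33, 10.32, 10.50 and 10.24, which did not overlap (difference 0.255, limma adjusted p = 0.259).

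**Figure D3:**
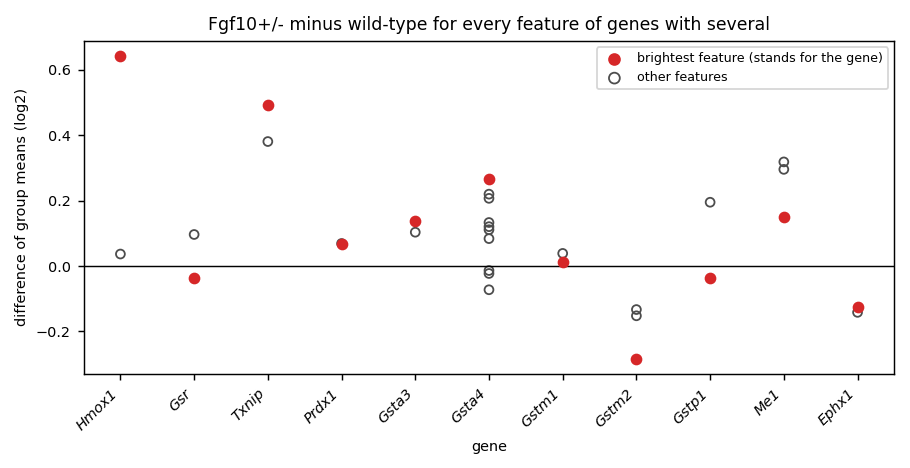
Difference of group means (y axis, log2, Fgf10+/- minus wild-type) for every feature of the 11 members with several features (x axis), the brightest feature filled and the others open. The sign was shared by all features in 8 of the 11 genes and mixed in Gsr, Gsta4 and Gstp1.

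All 5 genes of oxidation, carbonyl and epoxide metabolism and export had negative differences, and none passed. Cbr1 and Cbr3 encode carbonyl reductases. Cbr1 read 10.33, 10.62, 10.66 and 10.54 against 10.71, 10.76, 10.76 and 10.57, a difference of -0.16 (SE 0.09, limma adjusted p = 0.561). Cbr3 read 10.16, 10.16, 10.39 and 9.86 against 10.76, 10.24, 10.53 and 9.90, a difference of -0.21 (SE 0.16), which was -0.08 without wild-type array 1 and -0.37 without wild-type array 4. Both sets overlapped. Ephx1, the microsomal epoxide hydrolase, had -0.12 (SE 0.11), and its pair of features had -0.14 and -0.12. Without wild-type array 3, whose 13.37 was the highest value, its difference was -0.01, and without wild-type array 4 it was -0.19. Aox1, an aldehyde oxidase, had -0.08 (SE 0.13), and Abcc1, which exports glutathione conjugates, had -0.05 (SE 0.14). Without wild-type array 4 these differences were -0.16 and -0.11. Aox1 was -0.02 without wild-type array 3, and Abcc1 was -0.00022 without array 2 labelled Fgf10+/-.

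The spread over these genes was more often larger among the wild-type arrays. The SD of the wild-type group was the larger in 26 of 35 members (74.3%), against 57% of all genes tested. The median SD of the members was 0.239 in wild-type arrays and 0.152 in arrays labelled Fgf10+/-, where all genes had 0.254 and 0.223. The members were brighter than most genes, and genes of like level were not compared. Wild-type array 4 was the lowest wild-type array in 23 of 35 members (30.6% of all genes), and wild-type array 1 the highest in 17 (25% of all genes). Of all 8 arrays, wild-type array 4 was lowest in 15 members and highest in 0, against 19.3% and 16.9% of all genes. Averaged over the 35 members, each centred on its mean over the 8 arrays, the arrays labelled Fgf10+/- had 0.0119, 0.0714, 0.114 and -0.0811. Wild-type arrays 1 to 4 had 0.158, -0.213, 0.103 and -0.164. By this mean the 2 lowest arrays were wild-type, and so was the highest. In wild-type array 2 it included 6.02 for Hmox1 and 2.03 for the dim Slc7a11, each the lowest of the 8 arrays. The mean without these genes was not taken.

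Leaving out wild-type array 4 changed the sign of the difference in 5 of 35 members, and in 19 it changed the sign or moved the difference by over 1.5 times. The latter count was 16 without wild-type array 1 or 3, 9 without wild-type array 2 and 8 to 10 without an array labelled Fgf10+/-. The sign of the members' median depended on which arrays were kept. The median of -0.026 without wild-type array 4 and of -0.007 without wild-type array 2 had the opposite sign to the 0.042 over all arrays. It was -0.12 without both, a choice made after seeing the data.

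Some marker lists were at an extreme in wild-type array 4, lowest for club and ciliated cells and highest for mesothelial cells. Of 9 listed club cell genes 8 were measured, 7 with a positive difference and none called, and all 8 listed genes of ciliated cells had a positive difference with none called. Centred as above, the club list was at -0.289 in wild-type array 4, -0.153 to 0.0693 in wild-type arrays 1 to 3 and 0.00817 to 0.276 in the arrays labelled Fgf10+/-. For the ciliated list these values were -0.522, -0.311 to 0.0533 and 0.0847 to 0.413. The club genes Scgb1a1 and Cbr2 lay near the top of the scale in every array, between 15.94 and 15.99. For 5 listed mesothelial genes wild-type array 4 was at 1.74, wild-type arrays 1 to 3 at -0.533 to 0.608 and the arrays labelled Fgf10+/- at -0.951 to 0.12. Of 12 type 2 cell genes 5 were called higher, and the list was at 0.0923 to 0.161 in the arrays labelled Fgf10+/- and -0.197 to -0.0645 in wild-type arrays. The macrophage list, 7 of 9 measured genes negative with none called, was at -0.298 to -0.0412 and -0.0395 to 0.402 in the same order of groups. All 7 smooth muscle genes had a negative difference, 5 of them at an unadjusted p below 0.05 and none called, and that list was at -0.221 to -0.055 and 0.038 to 0.439. Of 8 tested genes of dividing cells 6 were called lower, and the list was at -1.07 to -0.439 and 0.0324 to 0.891. The part of these cells in the members' values was not tested.

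**Figure D4:**
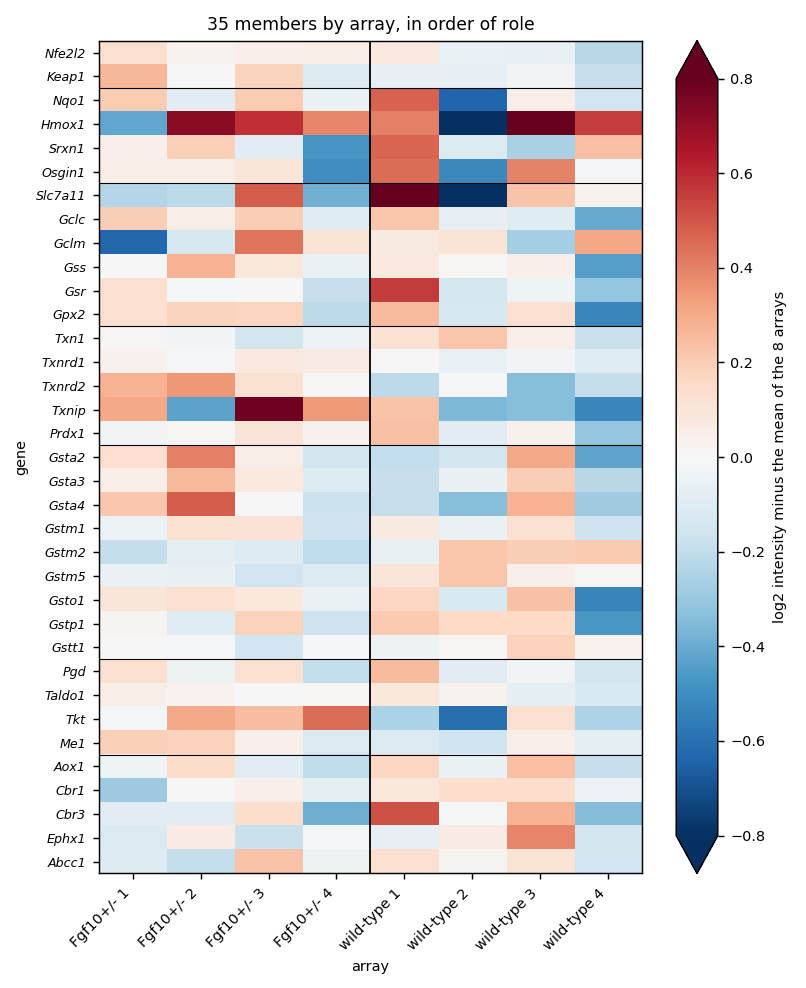
Log2 intensity of the 35 members (rows, in order of role) in the 8 arrays (columns) minus each gene's mean over the 8 arrays, with the colour scale ending at -0.8 and 0.8. Wild-type array 4 is lowest in 15 rows, and wild-type array 2 is the lowest for Hmox1 and Slc7a11.

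Other genes of the pathway were taken from a list of 81, of which 79 were tested. Among them 1 was called lower, 0 were called higher and 78 did not pass, where 0.569% of all genes were called lower. At an unadjusted p below 0.05 there were 7 higher and 7 lower, together 17.7% of the 79 against 11.2% of all genes. Their median was 0.007. The called gene was Nxn, which encodes nucleoredoxin, a thioredoxin relative that restrains WNT signalling. It read 9.98, 10.24, 10.02 and 10.07 in the arrays labelled Fgf10+/- and 10.55, 10.54, 10.56 and 10.74 in wild-type arrays, without overlap. Nxn fell by 0.52 on the log2 scale (SE 0.09, limma adjusted p = 0.0175). It was called in 3 of 8 refits that each omitted 1 array. The call was lost without array 1, 3 or 4 labelled Fgf10+/- or without wild-type array 2 or 4 (limma adjusted p from 0.0505 to 0.0698), and also without the variance trend (limma adjusted p = 0.172). Its dimmer feature had a difference of the opposite sign, 0.32, and the mean of both features gave -0.10 (limma adjusted p = 0.857).

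In the other thioredoxin genes, Txnrd3, another thioredoxin reductase gene, read 9.30, 9.26, 9.09 and 9.16 against 8.58, 8.90, 8.84 and 9.04, without overlap. Its difference was 0.36 (SE 0.12, limma adjusted p = 0.229). Msra, a methionine sulfoxide reductase that draws on thioredoxin, read 9.59, 9.68, 9.47 and 9.47 against 9.17, 9.37, 9.40 and 8.91, also without overlap, with a difference of 0.34 (SE 0.12, limma adjusted p = 0.274). For each gene all 4 values lay above those of the wild-type arrays, and neither passed. Both were named for a small p, a choice that favours groups without overlap. Over the 79 tested other pathway genes, groups did not overlap for 5 that were higher (Txnrd3, Msra, Nfe2l3, Glo1 and Gstk1). They did not overlap for 3 that were lower (Nxn, Sqstm1 and Esd), against 3.13% higher and 3.51% lower over all genes.

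Among the other regulators, Sqstm1, whose protein p62 sequesters KEAP1, read 7.84, 8.05, 8.05 and 8.31 against 8.53, 8.37, 8.35 and 8.31, a difference of -0.33 (SE 0.13, limma adjusted p = 0.347). Its groups met at 8.309 and 8.311 without overlapping. Maff, a small MAF partner, had -0.30 (SE 0.13), and Nfe2l3, a relative of NRF2, had 0.57 (SE 0.30). Of the other glutathione genes, the secreted peroxidase Gpx3 had -0.62 (SE 0.25), with 9.16 in array 4 labelled Fgf10+/- as its lowest value. The glyoxalase Glo1 had 0.18 (SE 0.10) and Glrx5, a mitochondrial glutaredoxin, 0.15 (SE 0.08). None of the genes in these groups passed.

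In the other transferases the values were -0.70 for Gstm6, 0.36 for Gstt2 (SE 0.15) and 0.22 for the kappa class Gstk1 (SE 0.10). Gstk1 read 11.63, 11.77, 11.72 and 11.63 against 11.60, 11.48, 11.61 and 11.19, without overlap. Of the other targets, catalase (Cat) read 9.25, 8.84, 9.61 and 9.49 against 8.68, 8.89, 8.89 and 8.40, a difference of 0.58 (SE 0.17, limma adjusted p = 0.154). Its array 2 labelled Fgf10+/- lay among the wild-type values. Akr1c13, an aldo-keto reductase, had 0.34 (SE 0.14) and the esterase Esd -0.21 (SE 0.09). These genes did not pass either.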

How the data were processed

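The deposited table gives log2 intensities for 62976 features on 8 arrays. The authors used limma, per the submitters' processing notes, with no version or step. All 8 columns share nearly the same quantiles, so nothing more was normalized. How background was corrected: not given in the sources used here. Features with missing values (189) were left out, none a member's. Symbols came from the platform annotation, and 2933 were updated through RefSeq accessions, none a member's. Features with a mean below the 30th percentile (2.761) were removed, and the brightest feature stood for each gene. The test used limma 3.58.1 under R 4.3.3 (lmFit, eBayes with a variance trend, two-sided, Benjamini-Hochberg over 17229 genes, called below 0.05), a script tested on simulated data. Arrays give no depth, and their number limits the precision. Figures were drawn with matplotlib 3.10.9.

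The members and lists were chosen with earlier results of these data known. Named genes were all members, and of the other pathway genes those called and, in each group, the 3 with the smallest unadjusted p. Gstm3, Gstm4 and Gstm7 were added after their values were seen. Alternatives were the feature, filter, scaling, variance trend, array weights, Xist level, replicate block, symbols, missing values and arrays left out.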

Additional observations from a re-analysis of the deposited data

Results flagged for a closer look

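In groups of 4 arrays, 1 value stood far from the other 3 for 7 of 88 groups checked, where chance gives about 1 in 20. In wild-type array 4, Gss was low at 8.089 against 8.548 to 8.612, Gstp1 was low at 9.744 against 10.37 to 10.42, and Nxn was high at 10.74 against 10.54 to 10.56. Array 4 labelled Fgf10+/- was low for Osgin1, at 7.76 against 8.296 to 8.345, and for Gpx2, at 11.36 against 11.7 to 11.75. In wild-type array 1 Gstm2 was low at 11.96 against 12.22 to 12.24. Array 3 labelled Fgf10+/- was low for Gstt1, at 10.78 against 10.92 to 10.93.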

How the results depend on the processing

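Of the 35 members, 24 kept the sign of their difference in every alternative run and 11 changed it in some. No member was called in the alternatives that kept all 8 arrays. Over the 8 refits that each omitted 1 array, the members called ranged from 0 to 1 higher and from 0 to 1 lower, members without overlap from 1 to 4 higher and from 2 to 4 lower, and other pathway genes called lower from 0 to 1. Over all genes, calls ranged from 15 to 54 higher and from 19 to 129 lower. With the mean of all features of a gene, 2 members were higher and 1 lower without overlap, and 0 other pathway genes were called lower, as also without the variance trend. Without the trend 0 genes were called higher and 1 lower, and with the Xist level as a covariate 21 and 59. Without both wild-type array 1 and array 3 labelled Fgf10+/- (chosen after seeing the data), 3 members were higher without overlap, 0 other pathway genes were called lower, and 25 genes were called higher. Without both wild-type arrays 2 and 4 (also chosen so), the members' median was -0.116, 8 members were lower without overlap, 0 other pathway genes were called lower, and calls over all genes were 8 higher and 6 lower. Fewer arrays separate more easily, and the other causes were not tested.

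No pairing by replicate number was seen, with the deviations of same-numbered arrays correlated between -0.0645 and 0.0673. Array 4 labelled Fgf10+/- correlated best with wild-type array 4, and the others with an array of another number. Correlations this small cannot exclude a shared litter or batch. With the number as a replicate block 0 members were called, and the smallest adjusted p among them was 0.12 for Tkt.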
